A study of Mus musculus with 12 samples.

Results

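Ribosome biogenesis factors are the nucleolar proteins that transcribe, modify, cut and fold ribosomal RNA and assemble it with ribosomal proteins. Here they were represented by 43 mouse genes picked by name, as nucleolar and pre-rRNA processing factors that are typical Myc targets. No measured value entered the rule, though the list was drawn up with earlier results of these data known. All 43 were found among the 53379 genes of the count table, and 42 of them were among the 14299 genes that had enough reads to be tested. The cells were a B cell lymphoma line from the Eµ-myc mouse on a C57BL/6 background, so every group carried the same Myc transgene, driven by an immunoglobulin heavy chain enhancer. Interferon-γ (IFN-γ, a cytokine made by T and NK cells) was given as recombinant mouse protein at 5 ng/mL and was neutralised at different times with 50 µg/mL of the anti-mouse IFN-γ antibody XMG1.2, and RNA was taken 24 h after stimulation. There were 4 groups of 3 libraries: Unstimulated, and IFN-γ for 1 h, 6 h or 24 h. A 1 h library therefore reports cells collected long after their exposure ended, not cells at 1 h. The labels do not state if unstimulated cells or those of the 24 h group were given antibody, when unstimulated cells were collected, and whether the libraries of a group were separate cultures, so the p-values measure only the spread between these libraries, which may be technical.

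In the nucleolus, RNA polymerase I makes a long precursor rRNA, small nucleolar ribonucleoproteins (snoRNPs) guide its methylation (box C/D) and pseudouridylation (box H/ACA), and large assemblies cut it on the way to the small and large ribosomal subunits. Myc activates many of these genes, and growing lymphoma cells express them at high level. The 43 factors were placed in 6 roles: RNA polymerase I subunits, nucleolar scaffold and regulatory proteins, box C/D snoRNP proteins, box H/ACA snoRNP proteins, small subunit factors and large subunit factors.

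Library totals ran from 49440358 to 67096610 counts. On the first principal component (44.2% of the variance over all tested genes) the 24 h libraries stood apart from the other 9, and on the second (7.84%) the third library of the 6 h group stood apart. Irf1, a direct IFN-γ target, was 4.39 log2 units higher after 24 h than in unstimulated cells (adjusted p = 1.07e-29) and was not called after 1 h or 6 h. The Myc transcript was not called in any comparison (0.07 ± 0.04 after 24 h against unstimulated, log2 ± SE, adjusted p = 0.296). The 8 B cell markers summed to 2695 to 2776 CPM (counts divided by the effective library size, on a common scale) in unstimulated libraries and 2533 to 2559 CPM after 24 h. The lowest B cell marker was Ms4a1, at 6.43 to 14.4 CPM. Markers of T and NK cells (9 genes) summed to at most 1.37 CPM, with Cd4, Cd8a, Ncr1 and Nkg7 at 0 in every library. The 10 myeloid markers summed to at most 2.94 CPM, with S100a8 and S100a9 at 0. Cd3g (T and NK cells, 0.444 to 1.13 CPM) and Itgam (myeloid, 0.996 to 2.71 CPM) had reads in every library. What part the lower B cell marker sum has in the results at 24 h was not tested.

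The short stretches shown here carry the E-box CACGTG, 1 of 3 motifs searched in the factors' promoters, which Myc and its partner Max bind. RefSeq promoter windows on GRCm38.p6, from 250 bases before to 50 bases after a transcript start, were matched for 39 of the 43 factors (43 windows). They were not matched for Npm1, Fbl, Rrp12 and Bop1. The E-box reads the same on both strands and was in 9 windows, 1 each of 9 factors. All 9 are printed 5′ to 3′ on the gene's strand with the E-box in capitals.
Nop2: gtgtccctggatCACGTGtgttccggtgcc
Imp4: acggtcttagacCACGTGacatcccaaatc
Utp18: gcgagcgccggtCACGTGgcttgcggcggc
Ltv1: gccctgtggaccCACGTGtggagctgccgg
Utp20: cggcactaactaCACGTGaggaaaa
Tsr1: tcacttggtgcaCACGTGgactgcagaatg
Pes1: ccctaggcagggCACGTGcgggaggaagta
Mybbp1a: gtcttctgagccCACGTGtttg
Wdr43: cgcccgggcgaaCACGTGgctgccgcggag
In the first 3 the E-box began before the transcript start, 60 bases before it in Nop2 (chr6:125131811-125131840, plus strand), 121 bases in Imp4 (chr1:34439696-34439725, plus strand) and 20 bases in Utp18 (chr11:93885769-93885798, minus strand). In the other 6 it lay just downstream of the start, in the transcribed part. It began at base 29 in Ltv1 (chr10:13193092-13193121, minus strand), base 38 in Utp20 (chr10:88826765-88826789, minus strand), base 25 in Tsr1 (chr11:74898092-74898121, plus strand), base 3 in Pes1 (chr11:3963965-3963994, plus strand), base 41 in Mybbp1a (chr11:72441355-72441376, plus strand) and base 18 in Wdr43 (chr17:71616220-71616249, plus strand). The stretches of Utp20 and Mybbp1a are shorter because their windows end there. These letters were in 20.9% of the factors' windows, against 7.15% of all 32851 windows and 10.1% of the 11996 windows of tested genes. Because the factors were picked as typical Myc targets, this share is not independent of the choice.

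In unstimulated cells the factors covered a wide range of levels, compared per kb of exon (GENCODE M21, GRCm38). Npm1 (nucleophosmin, a histone and ribosome assembly chaperone) led with 1525 CPM per kb, followed by Ncl (nucleolin, which binds nascent pre-rRNA) with 481 CPM per kb. Nolc1, Ddx21 and Mybbp1a, the other 3 scaffold proteins, stood at 216, 187 and 175 CPM per kb, so all 5 proteins of this role were above every other factor. The lowest were Polr1c (16.6 CPM per kb), a subunit shared by RNA polymerases I and III, and Wdr12 (14.2 CPM per kb), a large subunit factor. Wdr74, a late large subunit factor, had 0 to 3 counts per library and 22 counts in all, so it was not tested. The identifier of Wdr74 in the count table carries an older version than the annotation used here, and what set its low count was not tested. Summed over the 42 tested factors, these transcripts took 2.06% to 2.12% of all counts in unstimulated libraries, 2.06% to 2.13% after 1 h, 2.02% to 2.08% after 6 h and 1.92% to 1.97% after 24 h. The ranges of the 24 h libraries and of each other group did not overlap. Most of this sum came from the 5 scaffold proteins, with 1.15% to 1.2% of all counts in unstimulated libraries. The share of the box H/ACA proteins did overlap, at 0.0924% to 0.0992% in unstimulated and 0.0911% to 0.0938% in 24 h libraries.

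**Figure D1:**
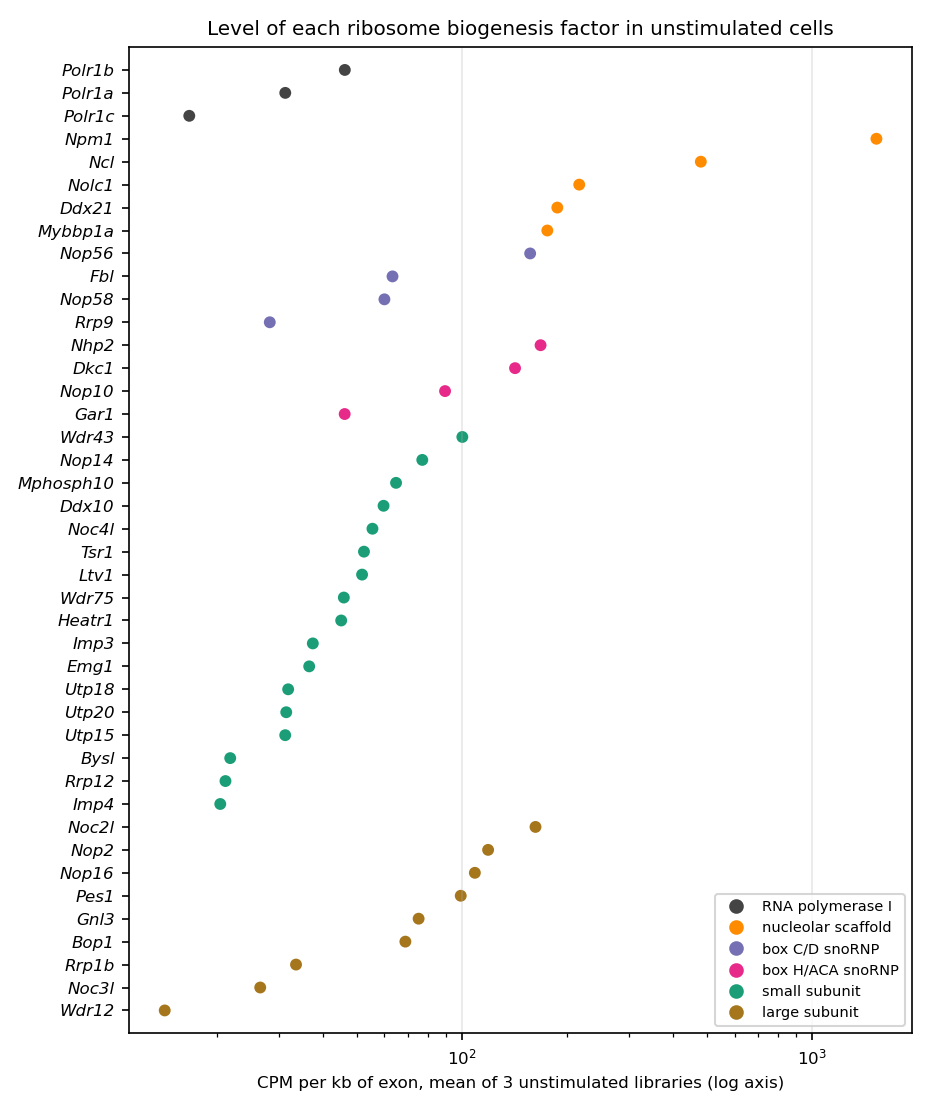
Level of each of the 42 tested factors in unstimulated cells in CPM per kb of exon (mean of 3 libraries, log axis), grouped and coloured by role. The 5 scaffold proteins lie furthest right, with Npm1 at 1525 CPM per kb, and Wdr12 furthest left at 14.2 CPM per kb.

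After 24 h of IFN-γ most factors had slightly lower values. Small subunit and large subunit factors held most of the calls, but also most of the tested factors (17 and 9 of 42). Against unstimulated cells, 16 of 42 were called lower and 1 higher at a Benjamini-Hochberg adjusted p under 0.05 over all tested genes. That is 40.5% called, against 18.7% of all tested genes, and 38.1% called lower, against 8.35% of all tested genes (10.3% were called higher). Among the 5266 tested genes within the factors' own range of mean level (33.4 to 4839 CPM), 12.8% were called lower. These genes of like level share the range only and were not matched to the factors' levels within it. The median log2 fold change was -0.10 over the 42 factors and -0.003 over all tested genes, with 36 factors negative and 6 positive. All 3 libraries of the 24 h group were below all 3 unstimulated libraries for 29 factors (16.8% of all tested genes did the same) and above them for 2 (17.2% of all tested genes). The called falls were 7.67% (Noc2l) to 19.5% (Ltv1). As these are bulk libraries, fewer cells expressing a factor and less of its RNA per cell cannot be told apart. The number called depended on single libraries, being 11 without unstimulated replicate 1, 11 without unstimulated replicate 3 and 10 without 24 h replicate 2.

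**Figure D2:**
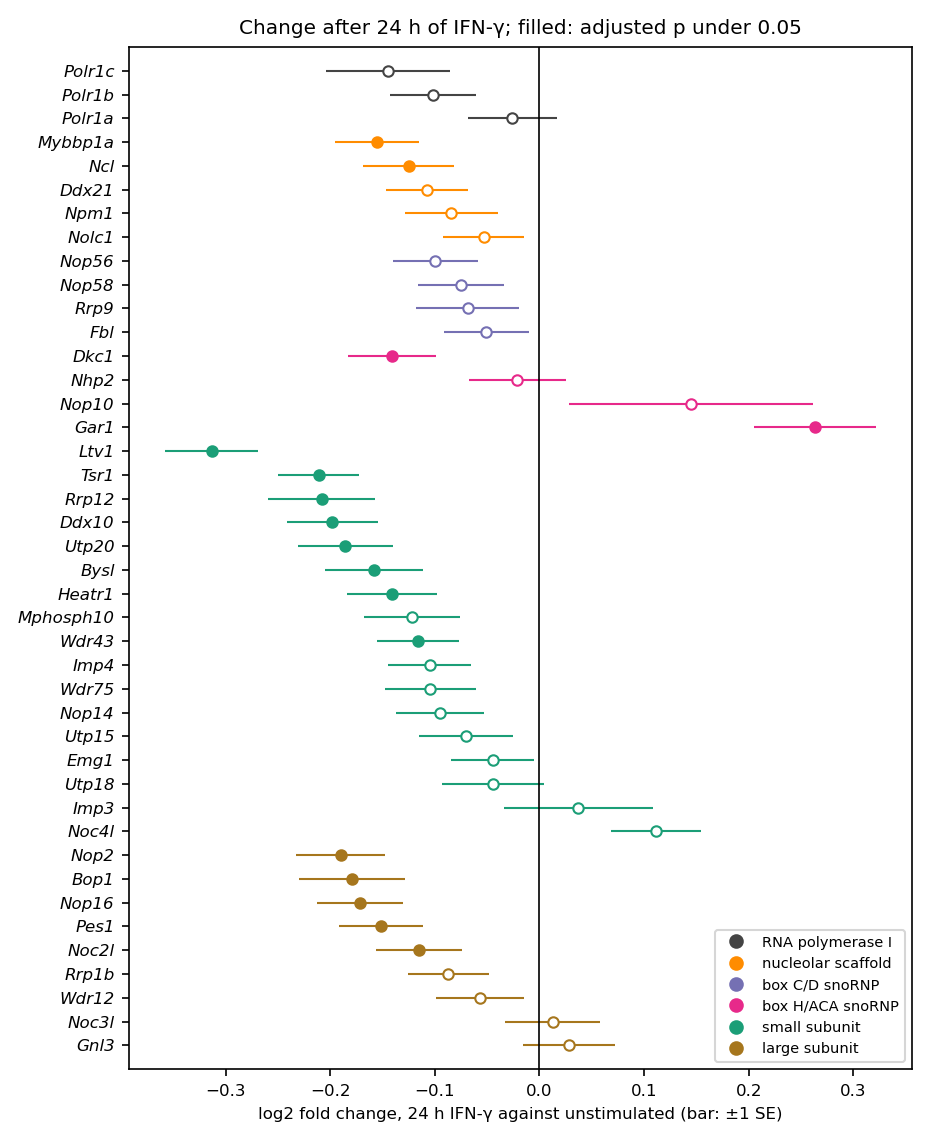
Log2 fold change of the 42 tested factors after 24 h of IFN-γ against unstimulated cells (point; bar: ±1 SE; 3 libraries per group), by role; filled points were called at adjusted p under 0.05. Most points lie left of 0, from -0.31 in Ltv1 to 0.26 in Gar1.

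**Figure D3:**
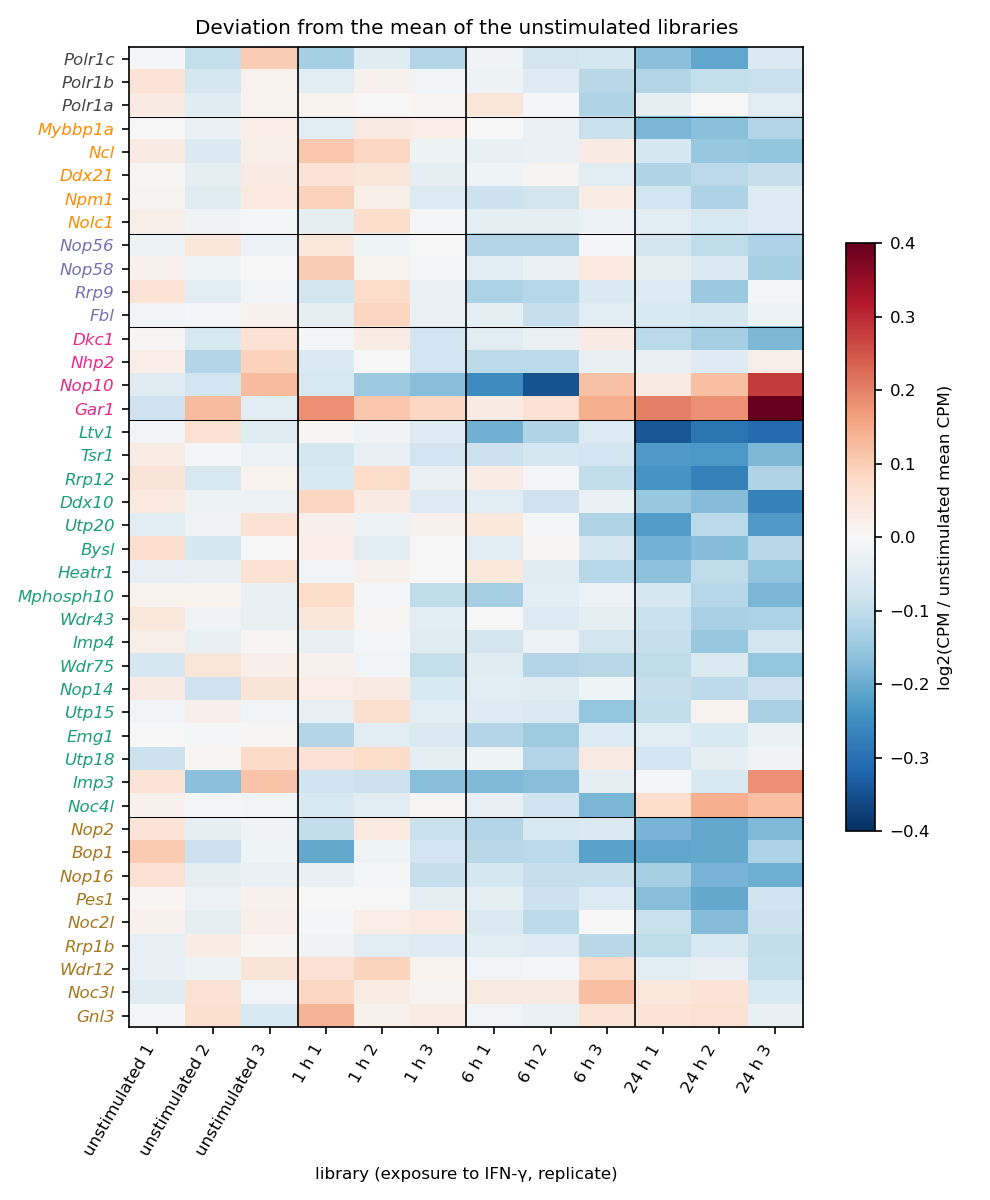
Deviation of each factor in each of the 12 libraries from the mean of the unstimulated libraries, as log2 of the ratio of CPM, with the colour scale ending at -0.4 and 0.4; vertical lines part the groups and horizontal lines the roles. The 3 columns of the 24 h group are mostly blue, with 37, 35 and 37 of 42 factors below the unstimulated mean. Gar1, Noc4l and Nop10 are above that mean in all 3 columns.

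Coordinates of genes are on GRCm38, from GENCODE M21. Small subunit factors held the largest falls: 8 of 17 were called lower and 0 higher, with a median log2 fold change of -0.12. Of all tested genes 8.35% were called lower and 10.3% higher. Ltv1 (ENSMUSG00000019814.5, chr10:13178140-13193168 on the minus strand) encodes an export and maturation factor of the pre-small subunit. It stood at 119, 125 and 116 CPM in the unstimulated libraries, 120.3, 119 and 116 CPM after 1 h, 105, 110.5 and 116 CPM after 6 h and 94.8, 98.1 and 97.0 CPM after 24 h. The 24 h libraries lay below all others, and the 6 h libraries lay below the unstimulated ones, the nearest by a narrow margin (115.6 against 116.0 CPM). Its change at 24 h was -0.31 ± 0.04 (log2 ± SE, adjusted p = 5.19e-06), a fall of 19.5%. Tsr1 (ENSMUSG00000038335.13, chr11:74898071-74909342 on the plus strand), a GTPase-like protein of the same late particles, had 205, 201 and 198 CPM in the unstimulated libraries, 192, 197 and 191 CPM after 1 h, 189.8, 192 and 191 CPM after 6 h and 172, 172 and 178 CPM after 24 h. Every 24 h value was below every other, with a log2 fold change of -0.21 ± 0.04 (adjusted p = 0.000176). Rrp12 (ENSMUSG00000035049.3, chr19:41862851-41896173 on the minus strand), an export factor of pre-ribosomal subunits, had 95.0, 87.5 and 92.4 CPM in the unstimulated libraries, 87.8, 96.3 and 89.8 CPM after 1 h, 93.5, 91.2 and 85.5 CPM after 6 h and 77.7, 75.9 and 84.3 CPM after 24 h. Its 24 h group did not overlap any other, and it fell by 13.4% (log2 -0.21 ± 0.05, adjusted p = 0.00412). These 3 and Bysl, another late small subunit factor (-0.16 ± 0.05, adjusted p = 0.0166), were all called lower. The Bysl call was lost without unstimulated replicate 1, unstimulated replicate 3, 24 h replicate 1 or 24 h replicate 2 (adjusted p = 0.14, 0.0501, 0.0838 and 0.0623, in that order).

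Other small subunit factors act earlier, in the processome that forms on nascent pre-rRNA around the U3 snoRNA, and of these Ddx10, Utp20, Heatr1 and Wdr43 were called lower. Ddx10 (ENSMUSG00000053289.8, chr9:53098635-53248053 on the minus strand), an RNA helicase, had 192, 184 and 184 CPM in the unstimulated libraries, 198, 191 and 180.1 CPM after 1 h, 181, 176 and 183 CPM after 6 h and 168, 166 and 155 CPM after 24 h. The 24 h libraries lay below the rest, and its log2 fold change was -0.20 ± 0.04 (adjusted p = 0.00151). Utp20 (ENSMUSG00000004356.8, chr10:88746607-88826804 on the minus strand) encodes a very large processome scaffold. It had 311, 318 and 334 CPM in the unstimulated libraries, 325, 316 and 325 CPM after 1 h, 330.2, 319 and 295 CPM after 6 h and 275, 298 and 274 CPM after 24 h, with 1 of the 24 h libraries reaching above the lowest 6 h library but none reaching the unstimulated range. Its log2 fold change was -0.19 ± 0.05 (adjusted p = 0.00391). Heatr1 (ENSMUSG00000050244.9, chr13:12395027-12440289 on the plus strand), which also links the processome to RNA polymerase I transcription, had 346, 346 and 369 CPM in the unstimulated libraries, 351, 358 and 354 CPM after 1 h, 364, 342 and 327 CPM after 6 h and 316, 329.6 and 317 CPM after 24 h. The 24 h and unstimulated values did not overlap, and the change of -0.14 ± 0.04 (adjusted p = 0.0204) was called, but not without unstimulated replicate 3, 24 h replicate 1 or 24 h replicate 3 (adjusted p = 0.137, 0.0877 and 0.0603, in that order). Wdr43, of the same subcomplex as Heatr1, was the least secure of the calls in this role (-0.12 ± 0.04, adjusted p = 0.0381). It was lost without unstimulated replicate 1, unstimulated replicate 2, unstimulated replicate 3, 24 h replicate 1, 24 h replicate 2 or 24 h replicate 3 (adjusted p = 0.203, 0.0527, 0.0565, 0.0647, 0.122 and 0.0896, in that order), with a looser filter (at least 1 count in any library; adjusted p = 0.0717) and in a fit to the 6 libraries compared (adjusted p = 0.0578).

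Of the 9 small subunit factors that were not called, 7 had negative log2 fold changes, from -0.12 (Mphosph10) to -0.04 (Utp18). They include Wdr75 (-0.10) and Utp15 (-0.07), partners of Heatr1 and Wdr43, Imp4 (-0.11), which with Mphosph10 binds the U3 snoRNA, Nop14 (-0.10) and the rRNA methyltransferase Emg1 (-0.04). Imp3, the tested factor with the lowest mean CPM, was at 0.04 with an SE of 0.07. Noc4l (ENSMUSG00000033294.11, chr5:110648418-110653417 on the minus strand), the partner of Nop14 in yeast, went the other way. It had 146, 144 and 143 CPM in the unstimulated libraries, 138, 139.5 and 144 CPM after 1 h, 141, 136 and 127 CPM after 6 h and 151, 159 and 156 CPM after 24 h. All 3 of its 24 h libraries lay above the other 9, and its lowest values were in the 6 h group. The change against unstimulated was 0.11 ± 0.04 (adjusted p = 0.0717), not called, though it was called with each library's trend on GC content removed (0.15, adjusted p = 0.0082).

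**Figure D4:**
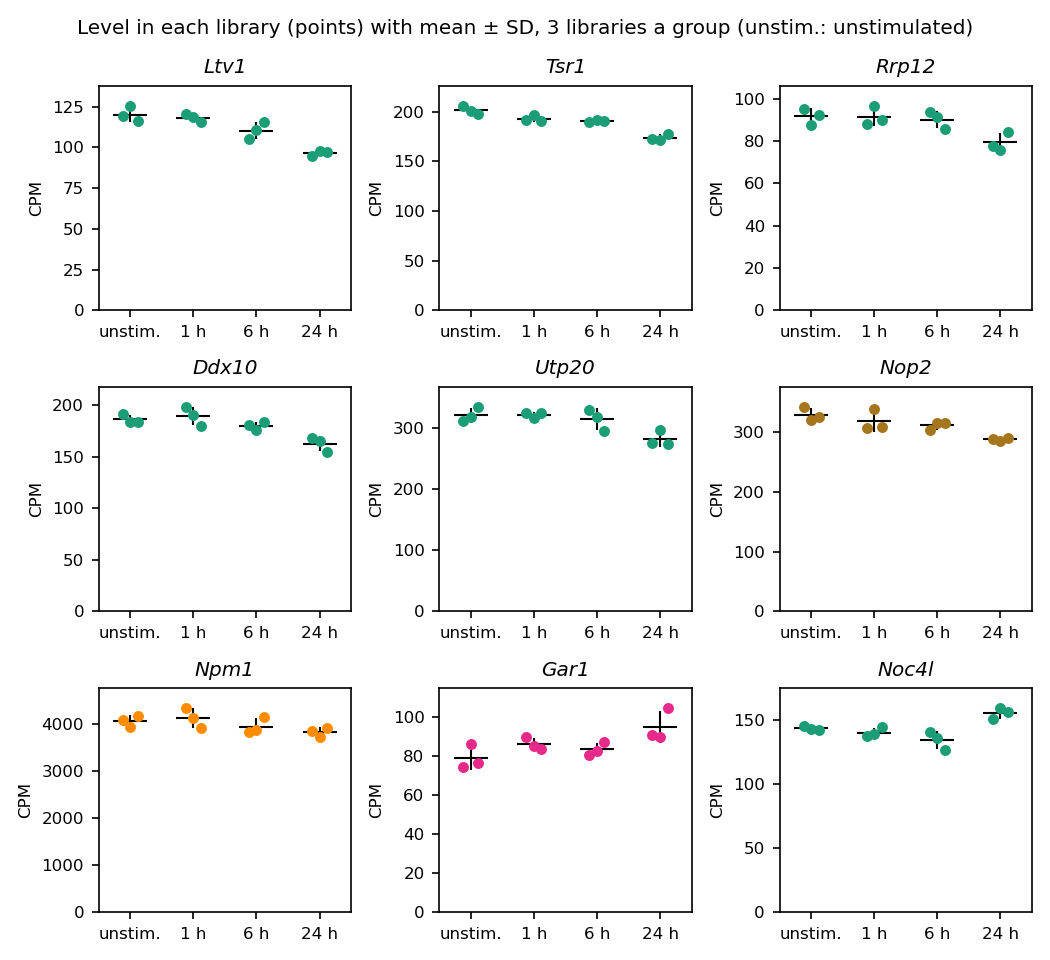
Level of 9 factors in each library in CPM (points: libraries; line and bar: mean ± SD of 3), coloured by role, with each vertical axis starting at 0. Ltv1, Tsr1, Rrp12, Ddx10, Utp20 and Nop2 have their lowest group mean after 24 h, Npm1 a difference that was not called, and Gar1 and Noc4l their highest group mean after 24 h.

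Large subunit factors were called lower in 5 of 9 (0 higher), against 8.35% of all tested genes. Their median log2 fold change was -0.12. Nop2 (ENSMUSG00000038279.10, chr6:125131909-125144753 on the plus strand), an rRNA cytosine methyltransferase long used as a proliferation antigen, had 342, 320.0 and 326 CPM in the unstimulated libraries, 308, 338 and 309.6 CPM after 1 h, 304, 316 and 316 CPM after 6 h and 289, 286 and 291 CPM after 24 h. Its 24 h libraries lay below the rest and close together, and it changed by -0.19 ± 0.04 (adjusted p = 0.00175). Bop1 and Pes1 belong with Wdr12 to the PeBoW complex, which is needed to mature the large subunit rRNAs. Bop1 (ENSMUSG00000022557.10, chr15:76452989-76477277 on the minus strand) had 219, 192 and 201 CPM in the unstimulated libraries, 177, 201 and 193 CPM after 1 h, 188, 189 and 175 CPM after 6 h and 176, 177 and 187 CPM after 24 h. Its unstimulated libraries were spread more widely than its 24 h libraries, and the 1 h and 6 h groups overlapped the 24 h group. The Bop1 change of -0.18 ± 0.05 (adjusted p = 0.0133) was lost without unstimulated replicate 1, 24 h replicate 1 or 24 h replicate 2 (adjusted p = 0.153, 0.0679 and 0.0622, in that order). Pes1 changed by -0.15 ± 0.04 (adjusted p = 0.0081), a call lost without 24 h replicate 2 (adjusted p = 0.0679). The third member of the complex, Wdr12, was at -0.06 ± 0.04 and was not called (adjusted p = 0.383). Nop16 (-0.17 ± 0.04, adjusted p = 0.00323) and Noc2l (-0.12 ± 0.04, adjusted p = 0.0478) made up the 5. The Noc2l call was lost without unstimulated replicate 1, unstimulated replicate 3, 24 h replicate 1 or 24 h replicate 2 (adjusted p = 0.175, 0.16, 0.0795 and 0.233, in that order), with the looser filter named for Wdr43 (adjusted p = 0.0761), in a fit to the 6 libraries compared (adjusted p = 0.0672) and with each library's GC trend removed (-0.08, adjusted p = 0.129).

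Gnl3 (nucleostemin; ENSMUSG00000042354.7, chr14:31012433-31019152 on the minus strand), a nucleolar GTPase abundant in proliferating cells, was among the 4 large subunit factors not called. It had 457, 479 and 439 CPM in the unstimulated libraries, 503, 464 and 468 CPM after 1 h, 455, 449.7 and 476 CPM after 6 h and 476, 478 and 449 CPM after 24 h. Every group overlapped every other, and its change at 24 h was 0.03 ± 0.04 (adjusted p = 0.71). Noc3l, which pairs with Noc2l, was at 0.01 ± 0.05, and Rrp1b at -0.09 ± 0.04 (adjusted p = 0.123).

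The nucleolar scaffold proteins, the most abundant factors, were called lower in 2 of 5 (0 higher), against 8.35% of all tested genes. Their median was -0.11. Ncl (ENSMUSG00000026234.12, chr1:86344719-86359400 on the minus strand) had 5009, 4705 and 4976 CPM in the unstimulated libraries, 5279, 5188 and 4824 CPM after 1 h, 4796, 4806 and 5012 CPM after 6 h and 4676, 4411 and 4384 CPM after 24 h. Its 24 h libraries lay below all others, and its change was -0.12 ± 0.04 (adjusted p = 0.0446), but the call was lost without unstimulated replicate 1, unstimulated replicate 3, 24 h replicate 2 or 24 h replicate 3 (adjusted p = 0.198, 0.156, 0.154 and 0.136, in that order). Mybbp1a, a Myb-binding protein that restrains RNA polymerase I and joins pre-rRNA processing, fell by 10.2% (-0.16 ± 0.04, adjusted p = 0.00615). Npm1 (ENSMUSG00000057113.13, chr11:33152287-33163206 on the minus strand) had 4088, 3925 and 4176 CPM in the unstimulated libraries, 4329, 4132 and 3907 CPM after 1 h, 3825, 3863 and 4142 CPM after 6 h and 3851, 3727 and 3920 CPM after 24 h. Its 24 h libraries lay just under the unstimulated range, the 6 h libraries overlapped both, and the change of -0.08 ± 0.04 was not called (adjusted p = 0.204), though it was called with each library's GC trend removed (-0.13, adjusted p = 0.0328). The helicase Ddx21 was at -0.11 ± 0.04 (adjusted p = 0.0558) and the snoRNP chaperone Nolc1 at -0.05 ± 0.04 (adjusted p = 0.374).

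The snoRNP proteins had mixed calls. Among box C/D proteins 0 of 4 were called in edgeR, against 18.7% of all tested genes, and 1 had an unadjusted p under 0.05. Of all 14299 tested genes, 2113 were lower and 2209 higher at that cut-off. Fbl (fibrillarin; ENSMUSG00000046865.7, chr7:28169710-28179269 on the plus strand), the methyltransferase of these particles, had 264, 266 and 269.6 CPM in the unstimulated libraries, 260.0, 283 and 262 CPM after 1 h, 259.7, 249.8 and 259 CPM after 6 h and 256, 254 and 262 CPM after 24 h. Its 24 h libraries lay just below the unstimulated ones, with a change of -0.05 ± 0.04 (adjusted p = 0.429). Nop56 (-0.10 ± 0.04), Nop58 (-0.07 ± 0.04) and Rrp9, which is specific to the U3 snoRNA (-0.07 ± 0.05), were all negative and not called.

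Among the 4 box H/ACA proteins, 1 was called lower and 1 higher, where 8.35% of all tested genes were lower and 10.3% higher. Dkc1 (dyskerin; ENSMUSG00000031403.14, chrX:75095854-75109777 on the plus strand), the pseudouridine synthase, had 586, 559 and 608 CPM in the unstimulated libraries, 582, 596 and 553 CPM after 1 h, 566, 573 and 597 CPM after 6 h and 541, 532 and 516 CPM after 24 h. Its 24 h libraries lay below all others, and it changed by -0.14 ± 0.04 (adjusted p = 0.0184), a call lost without unstimulated replicate 1, unstimulated replicate 3, 24 h replicate 2 or 24 h replicate 3 (adjusted p = 0.0708, 0.132, 0.0504 and 0.0751, in that order). Gar1 (ENSMUSG00000028010.16, chr3:129824912-129831396 on the minus strand), the protein that completes the mature box H/ACA particle, had 74.7, 86.3 and 76.7 CPM in the unstimulated libraries, 89.8, 85.2 and 83.8 CPM after 1 h, 81.0, 82.5 and 87.4 CPM after 6 h and 90.9, 89.7 and 105 CPM after 24 h. The 24 h libraries lay above the unstimulated and 6 h ones, while the lowest 24 h library was about level with the highest 1 h library. Gar1 rose by 20.1% (0.26 ± 0.06, adjusted p = 0.00179), the only factor called higher against unstimulated cells. Nop10, a very small core protein, had 95.8, 93.8 and 108 CPM in the unstimulated libraries, 94.7, 89.6 and 88.0 CPM after 1 h, 83.1, 77.7 and 107 CPM after 6 h and 101, 108 and 120.2 CPM after 24 h. It was the most variable factor within a group, with a coefficient of variation of 17.6% in the 6 h group, and its change of 0.14 ± 0.12 was not called (adjusted p = 0.455). Nhp2 was at -0.02 ± 0.05.

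None of the 3 RNA polymerase I subunits was called after 24 h in edgeR (0 of 3, with 2 at an unadjusted p under 0.05). Of all 14299 tested genes 18.7% were called, and 2113 were lower and 2209 higher at the unadjusted cut-off. Polr1a (ENSMUSG00000049553.11, chr6:71909053-71984935 on the plus strand), the largest catalytic subunit, had 380.4, 359 and 374 CPM in the unstimulated libraries, 375, 372 and 373 CPM after 1 h, 384, 370.2 and 342 CPM after 6 h and 362, 371 and 361 CPM after 24 h. The 24 h libraries overlapped the unstimulated and 6 h ones, and the change was -0.03 ± 0.04 (adjusted p = 0.73). Polr1b (ENSMUSG00000027395.15, chr2:129100995-129126594 on the plus strand), the second catalytic subunit, had 279, 256 and 271 CPM in the unstimulated libraries, 260.2, 272 and 266 CPM after 1 h, 264, 259 and 248 CPM after 6 h and 247, 252 and 252 CPM after 24 h. Its 24 h libraries lay below the unstimulated ones but overlapped the 6 h group, with a change of -0.10 ± 0.04 (adjusted p = 0.0875). The Polr1b change was called without unstimulated replicate 2 (-0.13, adjusted p = 0.0307) and with each library's trend on exon length removed (-0.11, adjusted p = 0.0426). Polr1c was at -0.14 ± 0.06 (adjusted p = 0.0913). Whether the 6 roles differ in their change was not tested.

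After shorter exposures no factor was called. For 6 h against unstimulated cells 0 of 42 factors were called with edgeR, DESeq2 or limma-voom, against 1.59% of all tested genes in edgeR (1.17% higher and 0.427% lower). In edgeR 6 factors had an unadjusted p under 0.05, all negative. Of all 14299 tested genes, 876 were lower and 1132 higher at that cut-off. With both directions pooled the factors' share is near that of all genes, but all 6 factors were lower. The median log2 fold change was -0.05, with 38 factors negative and 4 positive, and all tested genes had a median of 0.00. Groups did not overlap, with 6 h lower, for 14 factors (8.12% of all tested genes) and with 6 h higher for 0 (8.64% of all tested genes). The lowest unadjusted p values belonged to Bop1 (-0.15 ± 0.05, adjusted p = 0.164) and Ltv1 (-0.12 ± 0.04, adjusted p = 0.188). Without the 6 h replicate that stood apart, replicate 3, Ltv1 (-0.16, adjusted p = 0.0424) and Nop10 were called lower, and 531 genes in place of 228 were called in the whole table. In the 6 h libraries 36, 38 and 31 of 42 factors lay below the unstimulated mean.

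For 1 h against unstimulated cells 0 of 42 were called with edgeR, DESeq2 or limma-voom, against 0.42% of all tested genes in edgeR (0.273% higher and 0.147% lower). With edgeR 1 factor had an unadjusted p under 0.05 (Gar1, 0.12 ± 0.06, adjusted p = 0.529). Of all 14299 tested genes, 745 were higher and 579 lower at that cut-off. The median over the factors was -0.004, and 19 factors were positive and 23 negative. The 1 h libraries had 22, 18 and 31 factors below the unstimulated mean, while unstimulated replicate 2 alone had 32, so libraries of 1 group differed by as much. A change of the typical size at 24 h, 0.10 on the log2 scale, was near the limit of what these libraries could resolve, as the median SE over the factors was 0.04.

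**Figure D5:**
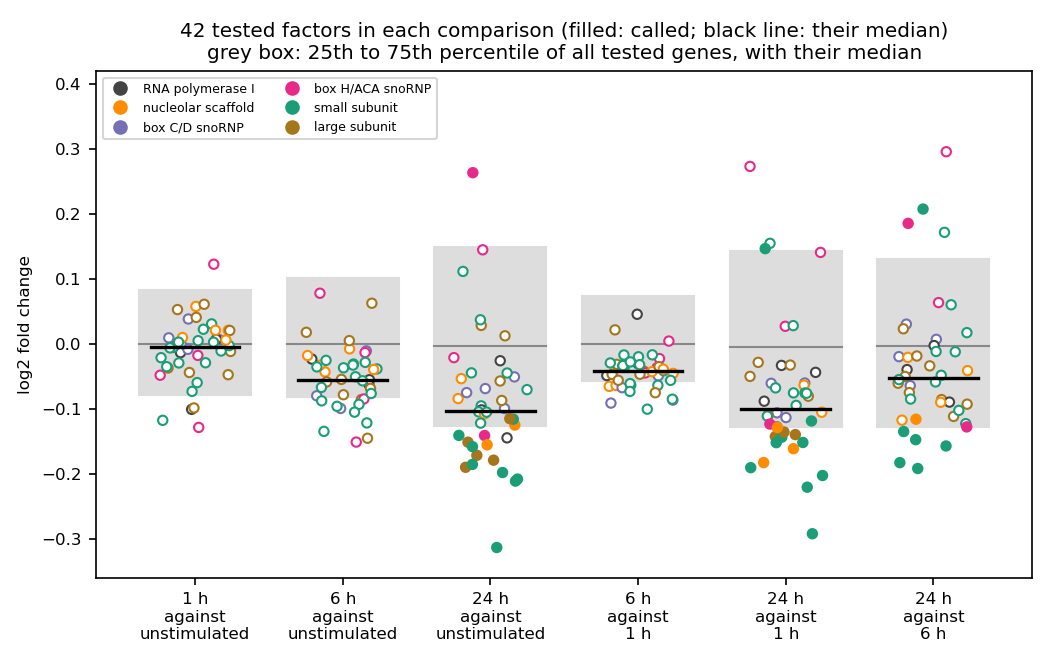
Log2 fold change of the 42 tested factors in each of the 6 comparisons (points, coloured by role; filled: called; black line: their median), with the 25th to 75th percentile and median of all tested genes as a grey box and line. The black line is at -0.10 for 24 h against unstimulated and against 1 h, at -0.05 for 24 h against 6 h and for 6 h against unstimulated, and near 0 for 1 h against unstimulated.

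Direct comparisons between exposures found factors that were lower after 24 h than after either shorter exposure. Between 24 h and 6 h, 7 of 42 factors were called lower and 2 higher, or 21.4% in all (16.5% of all tested genes, 7.63% lower and 8.92% higher), with a median of -0.05. The share called lower was 16.7% of the factors, against 11.8% of the genes of like level. Ltv1 (-0.19 ± 0.04, adjusted p = 0.00286), Rrp12 (-0.18 ± 0.05, adjusted p = 0.0127), Utp20 (-0.16 ± 0.05, adjusted p = 0.0156), Ddx10 (-0.15 ± 0.04, adjusted p = 0.0189), Tsr1 (-0.13 ± 0.04, adjusted p = 0.0149), Dkc1 (-0.13 ± 0.04, adjusted p = 0.0365) and Mybbp1a (-0.12 ± 0.04, adjusted p = 0.0456) were lower. Noc4l was higher (0.21 ± 0.04, adjusted p = 0.000875), as was Gar1 (0.19 ± 0.06, adjusted p = 0.0282). Of these 9, Ltv1 and Noc4l were called under every alternative tried, whereas the Dkc1 call was lost without 6 h replicate 1, 6 h replicate 2, 6 h replicate 3, 24 h replicate 1, 24 h replicate 2 or 24 h replicate 3 (adjusted p = 0.0582, 0.0869, 0.131, 0.0595, 0.0833 and 0.137, in that order). The Rrp12 call was lost without 6 h replicate 1, 6 h replicate 2, 24 h replicate 1 or 24 h replicate 2 (adjusted p = 0.0927, 0.0597, 0.0666 and 0.0841, in that order). That of Utp20 was lost without 6 h replicate 1, 6 h replicate 2, 24 h replicate 1 or 24 h replicate 3 (adjusted p = 0.134, 0.0702, 0.0857 and 0.0753, in that order). Ddx10, Tsr1 and Gar1 lost theirs in fewer of these fits. Ddx10 was no longer called without 6 h replicate 1, 6 h replicate 3 or 24 h replicate 3 (adjusted p = 0.0706, 0.0523 and 0.127, in that order). Tsr1 was no longer called without 6 h replicate 2, 24 h replicate 1 or 24 h replicate 2 (adjusted p = 0.0681, 0.0716 and 0.066, in that order). For Mybbp1a the same held without 6 h replicate 1, 6 h replicate 2, 24 h replicate 1 or 24 h replicate 2 (adjusted p = 0.219, 0.158, 0.18 and 0.133, in that order), with the looser filter (adjusted p = 0.0792), in a fit to the 6 libraries compared (adjusted p = 0.0716) and with a replicate block (adjusted p = 0.0566). For Gar1 it held without 6 h replicate 1, 6 h replicate 2 or 24 h replicate 3 (adjusted p = 0.113, 0.0805 and 0.229, in that order). No single library ended all 7 of these calls, but leaving out 6 h replicate 1 ended 6 of them, as did leaving out 6 h replicate 2. The count of called factors was 3 without 6 h replicate 1, 3 without 6 h replicate 2, 4 without 24 h replicate 1 and 5 without 24 h replicate 2, and it was 15 with each library's exon length trend removed.

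Between 24 h and 1 h, 16 factors were called lower and 1 higher (18.9% of all tested genes were called, 8.78% lower and 10.2% higher), with a median of -0.10. The share called lower was 38.1%, against 15.4% of the genes of like level. The largest differences were in Ltv1 (-0.29 ± 0.04, adjusted p = 1.39e-05), Ddx10 (-0.22 ± 0.04, adjusted p = 0.000439), Rrp12 (-0.20 ± 0.05, adjusted p = 0.00487) and Utp20 (-0.19 ± 0.05, adjusted p = 0.00295). Noc4l was the 1 higher factor (0.15 ± 0.04, adjusted p = 0.0159), a call lost without 24 h replicate 2 (adjusted p = 0.0799). The Rrp12 call was lost without 1 h replicate 2 (adjusted p = 0.0704). The other 12 called lower were Ncl, Mybbp1a, Tsr1, Bysl, Nop2, Pes1, Heatr1, Noc2l, Ddx21, Nop16, Dkc1 and Wdr43, from -0.18 (Ncl) to -0.12 (Wdr43). Ncl and Mybbp1a kept their calls with any library left out, and Tsr1 lost it without 1 h replicate 2 (adjusted p = 0.0526). The remaining 9 lost theirs without 3 to 5 of the 6 libraries, which in each case included 1 h replicate 2 or 24 h replicate 2 (highest adjusted p of 0.0859 in Heatr1 to 0.237 in Dkc1). The count was 11 without 1 h replicate 1, 7 without 1 h replicate 2, 10 without 24 h replicate 1 and 8 without 24 h replicate 2. Between 6 h and 1 h, 0 factors were called with edgeR, DESeq2 or limma-voom (0.0979% of all tested genes in edgeR, 0.0839% higher and 0.014% lower), and the median was -0.04. In edgeR 2 factors had an unadjusted p under 0.05, where 434 of all 14299 tested genes were higher and 272 lower. The comparisons with the 24 h group share its libraries, so their values are not independent of each other.

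Other genes of the same pathway, 128 genes listed by name that are not among the 43, were counted alongside. Of these 127 were in the table and 126 were tested. After 24 h, 28 were called lower and 3 higher against unstimulated cells, with a median log2 fold change of -0.06. The share lower was 22.2%, against 8.35% of all tested genes and 12.8% of genes in the tested factors' level range. That range was not matched to the levels of these 126 genes. The largest falls were in Pwp2, a processome scaffold (91.1, 80.7 and 88.7 CPM unstimulated and 71.9, 66.7 and 74.5 CPM after 24 h; -0.29 ± 0.05, adjusted p = 0.000204), Mdn1, a giant ATPase that remodels the pre-large subunit (392, 416 and 484 CPM and 364, 369 and 340.3 CPM; -0.27 ± 0.07, adjusted p = 0.0156), and the helicase Ddx54 (224, 199 and 210.0 CPM and 176, 168 and 183 CPM; -0.26 ± 0.05, adjusted p = 0.000131). For each of these the 24 h libraries lay below all 3 unstimulated libraries. The 3 called higher were Nsa2, a large subunit factor (0.18 ± 0.05, adjusted p = 0.00541), Nvl, an ATPase that acts on Wdr74 (0.13 ± 0.04, adjusted p = 0.0376), and Rrn3, the initiation factor that recruits RNA polymerase I (0.12 ± 0.04, adjusted p = 0.0353). All 3 libraries of the 24 h group lay above the unstimulated ones for Nsa2 and Rrn3, while 1 of those of Nvl did not. By class, 3 of 12 genes of RNA polymerase I transcription, 9 of 40 small subunit genes, 14 of 55 large subunit genes and 2 of 19 genes of snoRNP assembly and RNA decay were lower. The number called lower fell to 15 without unstimulated replicate 1, 18 without unstimulated replicate 3 and 17 without 24 h replicate 2. After 6 h, 1 of 126 was called, Rrp7a, a small subunit factor, which was lower (-0.17 ± 0.04, adjusted p = 0.0369). That count was 0 without any 1 of the unstimulated libraries, 6 h replicate 1 or 6 h replicate 2. After 1 h, 0 were called with edgeR, DESeq2 or limma-voom, and 4 had an unadjusted p under 0.05 in edgeR. Of all 14299 tested genes, 745 were higher and 579 lower at that cut-off. Against the 6 h group 14 of the 126 were lower and 2 higher after 24 h, or 12.7% called, which is below the 16.5% of all tested genes. The share lower was 11.1%, against 7.63% of all tested genes and 11.8% of genes in the tested factors' level range. Against the 1 h group 28 of the 126 were lower and 3 higher, or 22.2% lower. Of all tested genes 8.78% were lower, and of genes in the tested factors' level range 15.4%.

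Set beside the promoter letters, 7 of the 9 factors with an E-box window were called lower after 24 h (Nop2, Ltv1, Utp20, Tsr1, Pes1, Mybbp1a and Wdr43) and Imp4 and Utp18 were not called. Of the 29 tested factors with a window but no E-box, 7 were lower and 1 was higher. Among the other pathway genes, 8 of 18 with an E-box and 17 of 85 without one were lower. Over all tested genes with a window the shares were close, 9.53% of 1123 genes with an E-box and 8.37% of 8328 without one. These counts are a description, with no test, for 1 of the 3 motifs searched, and the E-box was set beside the calls with those calls known.

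Features of gene structure that the choice did not use were present in some of the factors. In GENCODE M21, 7 of them held snoRNA genes on their own strand, 21 in all: Nop56 held 5, Nop58 4, Ncl, Wdr43 and Gnl3 3 each, Tsr1 2 and Dkc1 1. Of these 7 host genes, 4 were called lower after 24 h, where 38.1% of all tested factors and 8.35% of all tested genes were. The snoRNAs themselves were not measured, since the libraries were made from polyadenylated RNA. An exon of 19 of the 43 factors overlapped an exon of a gene on the other strand, among them Dkc1 (Mpp1), Heatr1 (Lgals8), Tsr1 (Srr), Bop1 (Mroh1) and Gnl3 (Pbrm1). The strand setting of the counting and its rule for reads over both overlapping genes are not given. Counts of these factors may therefore include reads of the partner or lack reads of their own. Ltv1, Rrp12, Ddx10, Utp20, Nop2, Gar1 and Noc4l had no such partner. Across the 42 factors the change at 24 h had a Spearman's rho of -0.06 with exon length, 0.01 with GC content and -0.16 with mean level. These are descriptions over factors measured in the same libraries. Replicates varied little, with a median coefficient of variation within groups of 2.7% to 3.42% for the factors and 3.25% to 3.8% for genes of like level.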

How the data were processed

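Polyadenylated RNA of 12 samples was sequenced from stranded libraries, per the labels' protocols. The authors deposited raw counts per gene. The submitters' processing notes name STAR 2.5.2a, featureCounts 1.4.3-p1, Picard and mm10; the annotation release and strand setting of the counting are not stated there. Of counts from 1 to 20, 69.9% to 73.9% per library were even, so each mate of a read pair appears to add 1 count. After filterByExpr and TMM scaling, 4 groups of 3 libraries were fitted together in edgeR 4.0.16 (R 4.3.3) with robust quasi-likelihood tests (8 residual degrees of freedom). A gene is called where its p-value, adjusted over 14299 genes by the Benjamini-Hochberg method, is under 0.05. SE was taken as the size of the log2 fold change over the root of F. The fit was tested on simulated data. Replicate libraries differed by more than sampling noise (chi-square of 2.53 to 8.48 for each degree of freedom), so none was counted as a repeat. Precision is limited by the spread between 3 libraries.

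Members, lists, tests and the naming rule were chosen with earlier results of these data known. The rule takes 10 factors whatever their result (Ncl, Npm1, Fbl, Dkc1, Polr1a, Polr1b, Heatr1, Bop1, Nop2, Gnl3), in each comparison the 4 largest called rises and falls (all, where 5 or fewer were called), and the 3 largest called rises and falls of the other pathway genes at 1 CPM or more. Values of Nop10 (the most variable factor) and Rrp7a (a lone call) were added after they were seen. The rule showed promoter letters for Nop2, Ltv1, Utp20 and Tsr1, and the other 5 complete the set. Of the 43 members, 37 have the same identifier version in GENCODE M21. Alternatives were DESeq2 1.42.0, limma-voom (limma 3.58.1), RLE size factors, 2 other filters, fits to the 6 libraries compared, a replicate block, removal of GC or exon length trends, halved counts, and each library left out in turn. Counts of 2 other promoter motifs are not reported here.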

Additional observations from a re-analysis of the deposited data

Results flagged for a closer look

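Several factors were called in a direct test of the 24 h libraries against those of a shorter exposure (edgeR, adjusted p under 0.05). Against the 6 h group, the difference in log2 change was -0.19 in Ltv1, -0.18 in Rrp12, -0.16 in Utp20, -0.15 in Ddx10, -0.13 in Tsr1, -0.13 in Dkc1 and -0.12 in Mybbp1a. It was 0.21 in Noc4l and 0.19 in Gar1. These 9 calls were 21.4% of the factors, near the 16.5% of all tested genes. Only Ltv1 and Noc4l were called under every alternative, and the count fell to 3 without 6 h replicate 1 or without 6 h replicate 2.

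Against the 1 h group, the difference was -0.29 in Ltv1, -0.22 in Ddx10, -0.20 in Rrp12, -0.19 in Utp20, -0.18 in Ncl and -0.16 in Mybbp1a. It was -0.15 in Tsr1, -0.15 in Bysl, -0.14 in Nop2, -0.14 in Heatr1, -0.14 in Pes1 and -0.14 in Noc2l. Nop16 and Ddx21 each had -0.13, Dkc1 and Wdr43 each had -0.12, and Noc4l had 0.15. Noc4l was therefore higher after 24 h than after either shorter exposure although its difference from unstimulated cells was not called. Its call against the 1 h group was lost without 24 h replicate 2. In the comparison with 1 h, 40.5% of the factors were called, against 18.9% of all tested genes. The count of 17 fell to 7 without 1 h replicate 2.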

How the results depend on the processing

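The counts of factors called varied with single libraries and with the removal of GC or exon length trends. With 1 library left out, 24 h against unstimulated gave 10 to 20 (main value 17), 6 h against unstimulated 0 to 2 (main 0), 24 h against 6 h 3 to 10 (main 9) and 24 h against 1 h 7 to 17 (main 17). The upper value at 6 h came without 6 h replicate 3. With each library's exon length trend removed, 24 h against 6 h gave 15. The other alternatives stayed within 1.5 times the main counts, 15 to 24 for 24 h against unstimulated (24 with the GC trend removed) and 15 to 22 for 24 h against 1 h. For 1 h against unstimulated and 6 h against 1 h, 0 were called under every alternative, while the count over all genes moved, for 1 h, from 60 to between 15 and 174. For 6 h against unstimulated the count over all genes was 228, and 89 to 531 under the alternatives.

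Same-numbered libraries of different groups did not deviate together over all genes (correlations of -0.07 to 0.06), so the replicate numbers are not taken to pair the samples. A replicate block gave 16 called factors for 24 h against unstimulated, 9 for 24 h against 6 h, 18 for 24 h against 1 h and 0 for the other 3 comparisons. With the block and each library's GC trend removed these were 24, 11, 22 and 0. At 24 h against unstimulated the block ended the call of Ncl (adjusted p = 0.0551), and at 24 h against 6 h that of Mybbp1a (adjusted p = 0.0566).

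For single factors, 116 log2 fold changes were each recomputed under 17 alternatives, which gave 1972 comparisons with the main fit. A call was lost in 109, gained in 19, and reversed in 0. Against unstimulated cells at 24 h, Nop2, Nop16, Gar1, Rrp12, Utp20, Ddx10, Mybbp1a, Ltv1 and Tsr1 were called under all 17 alternatives. The looser filter also ended the calls of Nop16 (adjusted p = 0.0622), Dkc1 (0.0522) and Wdr43 at 24 h against 1 h, the fit to 6 libraries that of Ncl at 24 h against unstimulated (0.0718), and the block with the GC trend removed that of Gar1 at 24 h against 6 h (0.0583). The causes of lost calls were not tested. The tested factors had a mean of at least 33.4 CPM. Imp3, with the lowest mean, had an SE of 0.07 at 24 h against unstimulated, where the median over the factors was 0.04. Whether depth limited any call was not tested.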
